A study of Mus musculus with 8 samples.

Results

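The 10 genes of the unfolded protein response described here were Ern1, Eif2ak3, Atf6, Xbp1, Atf4, Ddit3, Hspa5, Pdia4, Herpud1 and Sel1l, taken by name. They were read in mouse striatum RNA that came down with CPEB1 or CPEB4, proteins that bind cytoplasmic polyadenylation elements near the 3′ ends of mRNAs and set poly(A) length and translation. The 10 were among 17097 genes named on the array and were carried by 27 probe sets, all of which were read on all 8 arrays. Probe sets with more than 1 gene symbol were left out.

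Male mice were 7 to 8 months old, and their striatum was joined into a WT pool and an HD pool. The design text names 4 mice, without saying whether per genotype, and the labels neither spell out HD nor name the model. From each pool, 1 array was hybridised with input lysate RNA and 1 each with RNA precipitated by rabbit IgG, anti-CPEB1 or anti-CPEB4 after formaldehyde crosslinking (RNA immunoprecipitation, RIP). All RNA, input included, was amplified over 27 cycles. No fraction of a pool had a replicate, so the pools stood in for replicates of a fraction, and nothing shows which part of the spread is technical. Values are log2 RMA summaries of a probe set, in which 1 unit is a 2-fold step. A level of 1 probe set cannot be set against that of another.

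The unfolded protein response is the programme by which a cell answers misfolded protein in the endoplasmic reticulum (ER). IRE1α (Ern1) and PERK (Eif2ak3) sense the load at the ER membrane, as does ATF6. IRE1α cuts Xbp1 mRNA so that its spliced form encodes the active factor, PERK slows translation while Atf4 mRNA is translated more, and ATF6 is cleaved to a factor that enters the nucleus. XBP1, ATF4 and ATF6 then raise chaperones, folding enzymes and the machinery of ER-associated degradation. Under lasting stress ATF4 also raises Ddit3, which encodes the pro-apoptotic factor CHOP. CPEB4 is itself known, in liver, as a regulator of translation under ER stress.

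The genes at the end of this programme are recognised through short promoter elements, which are shown because Hspa5 and Herpud1 are textbook carriers of them. The ER stress response element (ERSE, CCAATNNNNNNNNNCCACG) was searched on both strands of RefSeq promoter windows (build GRCm38.p6, 250 bases before to 50 after a gene's start), as was its variant ERSE-II (ATTGGNCCACG). Of the 10 genes, 9 had a window. The ERSE was found in 1 of them and in 39 of 32851 windows in all (0.119%). ERSE-II was found in 1 of them and in 12 of all windows (0.0365%). The Hspa5 match lay 65 to 47 bases before the start, within chr2:34772005-34772063, and the Herpud1 match 52 to 42 bases before it, within chr8:94386357-94386407, both on the plus strand. Capitals mark the matched element in the lines that follow. A match is a description of the letters, and these arrays measured RNA in lysates and precipitates, not promoters.
Hspa5: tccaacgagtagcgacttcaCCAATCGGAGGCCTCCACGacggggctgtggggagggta
Herpud1: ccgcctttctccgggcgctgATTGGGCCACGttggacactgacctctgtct

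The striatal identity of the lysates was checked first. Of 9 markers of striatal projection neurons, 7 were measured. For 6 of them the mean over all 8 arrays exceeded 4.23, the middle value among probe set means and the filter for testing. Tac1 stayed between 3.22 and 3.92. In WT and HD input, Drd1 read 4.53 and 4.47 and Drd2 4.56 and 5.05, near the filter. Penk, Pde10a and Rgs9 lay between 8.30 and 12.20 in input. Ppp1r1b, a dopamine-regulated phosphatase inhibitor, read 11.07 and 10.30 in input and lay between 8.32 and 11.92 over all arrays. A choroid plexus marker, Ttr, read 6.60 in WT input and 10.49 in HD input, and another, Clic6, 4.68 and 8.45. On the precipitates of both pools Ttr read 9.02 to 11.13 and Clic6 3.80 to 5.66. Kl and Folr1, the other choroid plexus markers, lay between 3.87 and 5.24 on all arrays. Array medians ran from 4.03 to 4.28, and the SD over tested genes between 1.28 and 1.79, the widest on WT CPEB4. Cpeb4 mRNA itself read 7.37 on WT CPEB4 and 4.46 on HD CPEB4 against 3.31 to 3.76 on the other arrays, and Cpeb1 mRNA read 3.13 to 3.90 except on HD CPEB4, at 5.08. Both lay under the filter.

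All 10 genes passed the filter with the probe set used in the fit, the one with the highest mean, and 20 of the 27 probe sets lay above it. Xbp1 passed only through its IgG arrays. Its mean was 4.89 over all 8 arrays and 4.05 without IgG, so that a difference from IgG was built into its passing, while each of the other 9 genes stayed above the filter with any 1 fraction left out.

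The CPEB4 precipitate was compared with IgG, which reads unspecific carry-over. By limma, over all 11345 tested genes, 1 of the 10 genes was called lower (Xbp1) and 0 higher at a Benjamini-Hochberg adjusted p under 0.05. Of all tested genes, 2.33% were called higher and 0.0441% lower. Both CPEB4 arrays lay above both IgG arrays for 3 of the 10 (Sel1l, Atf4 and Ddit3) and below them for 2 (Xbp1 and Atf6), against 29.3% and 37% of all tested genes. These above and below counts are close to or under the shares over all genes, and the 1 lower call rests on Xbp1 alone. Their median log2 difference was 0.11, against -0.06 over all tested genes. Without adjustment, 1 of the 10 had p under 0.05 as higher (Sel1l) and 1 as lower (Xbp1), against 15.7% and 7.2% of all tested genes.

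**Figure D1:**
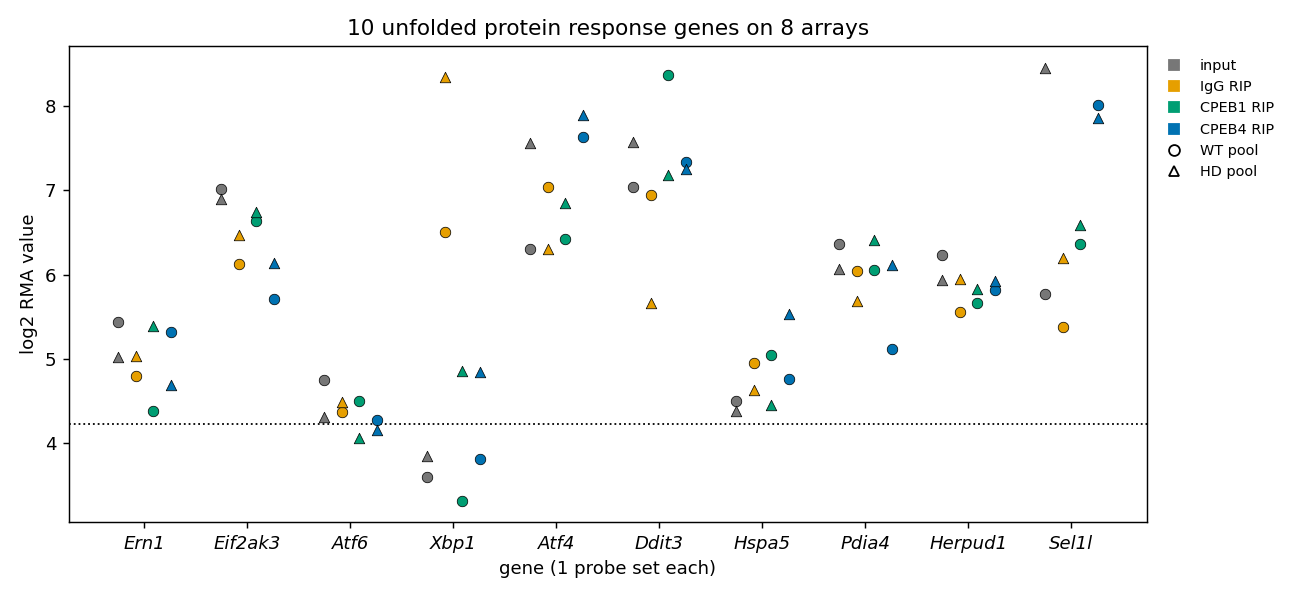
Log2 RMA value (vertical axis) of the probe set used in the fit for each of 10 genes on 8 arrays, with colour for the fraction, circles for the WT pool and triangles for the HD pool; the dotted line marks the filter at 4.23. The 2 IgG arrays of Xbp1 stand at 6.50 and 8.33, above its 6 other arrays, while both CPEB4 arrays of Atf4 stand above its other 6.

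Among the sensors, Ern1 read 5.44 in WT input and 5.02 in HD input, 4.80 and 5.03 on IgG, 4.38 and 5.39 on CPEB1, and 5.32 and 4.70 on CPEB4, in the order WT, HD that is kept throughout. The 4 fractions overlapped, and the order of the pools turned from fraction to fraction. The CPEB4 difference from IgG was 0.10 ± 0.46 (SE of the limma model, as in all such values; adjusted p = 0.902 by limma). Its 4 other probe sets gave differences from -0.59 to -0.08.

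Eif2ak3, encoding PERK, read 7.01 and 6.90 in input, 6.13 and 6.47 on IgG, 6.64 and 6.74 on CPEB1, and 5.71 and 6.14 on CPEB4. On CPEB4 both values were under both inputs and both CPEB1 arrays, and overlapped IgG. The CPEB4 difference was -1.03 ± 0.27 from input (adjusted p = 0.116 by limma), -0.76 ± 0.27 from CPEB1 (adjusted p = 0.300) and -0.37 ± 0.27 from IgG (adjusted p = 0.403). None of these passed the test. A further Eif2ak3 probe set, 1449278_PM_at, read 5.11 and 7.20 in input and 3.64 to 4.49 on the precipitates, so both inputs lay above every precipitate. Its CPEB4 difference from input was -1.47 in WT and -2.71 in HD, and its highest value, in HD input, rests on 1 array. The mean differences from input were alike for CPEB4 (-2.09), CPEB1 (-2.02) and IgG (-2.19). The third set, 1430371_PM_x_at, lay between 3.19 and 3.79 on all arrays.

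Atf6 stayed within a narrow range, from 4.07 on HD CPEB1 to 4.75 in WT input. On IgG it read 4.38 and 4.49 and on CPEB4 4.28 and 4.16, both lower. The difference of -0.21 ± 0.27 (adjusted p = 0.623 by limma) was smaller than its error and turned to 0.09 with cyclic loess scaling. Its other probe set gave 0.21, in the other direction.

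Xbp1, the transcription factor downstream of IRE1α, had the largest difference from IgG of the 10. The probe set in the fit, 1420886_PM_a_at, read 3.60 and 3.85 in input, 6.50 and 8.33 on IgG, 3.32 and 4.85 on CPEB1, and 3.82 and 4.85 on CPEB4. Both IgG arrays lay above the other 6. In the order of fraction means IgG came first, and input, CPEB1 and CPEB4 overlapped one another. The difference from IgG was -3.08 ± 0.44 for CPEB4 (adjusted p = 0.0411 by limma), with -2.69 in the WT pool and -3.48 in the HD pool. For CPEB1 it was -3.33 ± 0.44 (adjusted p = 0.131). Set against input, IgG differed by 3.69 ± 0.44 (adjusted p = 0.146) and CPEB4 by 0.61 ± 0.44 (adjusted p = 0.386). No fold is given, since both inputs and the WT CPEB4 and WT CPEB1 arrays lay under the 4.23 filter. Because Xbp1 passed that filter only through its IgG arrays, its p-values against IgG are those of a gene selected by that group and support nothing on their own. The 3 comparisons with IgG share its arrays and are not separate evidence.

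The call for Xbp1 was lost under 6 other settings. Those were no filter on low values, probe sets averaged, quantile normalization, no genotype block, only the 2 fractions compared and all probe sets in 1 fit. With quantile normalization and with only the 2 fractions, 0 of all tested genes were called. Without any 1 array the difference ranged from -3.53 to -2.64. The other 3 Xbp1 probe sets did not show the pattern. 1420011_PM_s_at read 3.33 on WT IgG, its lowest value, and 6.02 on HD IgG, its highest, with 5.37 on HD CPEB4. 1420012_PM_at read 3.52 and 5.20 on IgG and 3.46 and 4.95 on CPEB4. Their differences between CPEB4 and IgG were -0.21 and -0.16. 1437223_PM_s_at lay between 2.73 and 3.93 on all arrays, with its highest value on WT CPEB4. High Xbp1 on WT IgG was therefore read by 1 of 4 probe sets, and high Xbp1 on HD IgG by 3 of 4. None of these values separates the spliced from the unspliced form.

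Markers of secretory cell types rich in Xbp1, and then of other cell types, were read beside this result. Of 5 markers of plasma and B cells, 3 were measured, and their mean was 4.94 and 5.0 on IgG against 5.32 and 5.31 in input, with the defining plasma cell gene Jchain at 2.97 to 3.42 throughout. The means of 4 exocrine pancreas markers were 4.72 and 4.56 on IgG against 4.96 and 4.58 in input. Those of 4 intestinal epithelium markers were 4.23 and 3.85 against 3.96 and 3.87. The means of 4 microglia markers were 6.51 and 5.40 on IgG against 5.01 and 5.06 in input. Aif1 was the one far higher on WT IgG, at 9.39 against 5.09 on HD IgG, while Csf1r read 7.65 and 8.30 there against 7.46 and 7.33 in input, Cx3cr1 5.49 and 4.4 against 4.35 and 4.24, and P2ry12 3.51 and 3.79 against 3.64 and 3.76. The means of the other marker lists on IgG were 8.24 and 6.85 for striatal projection neurons, against 7.70 and 7.59 in input. They were 7.72 and 7.13 against 7.70 and 8.09 for oligodendrocytes, and 6.82 and 6.76 against 6.56 and 7.17 for astrocytes. For endothelium they were 5.42 and 5.60 against 6.06 and 5.53, and for choroid plexus 5.77 and 6.31 against 5.06 and 7.05. For blood they were 8.08 and 7.84 against 8.67 and 8.73. The part of these cell types in the Xbp1 values was not tested.

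**Figure D2:**
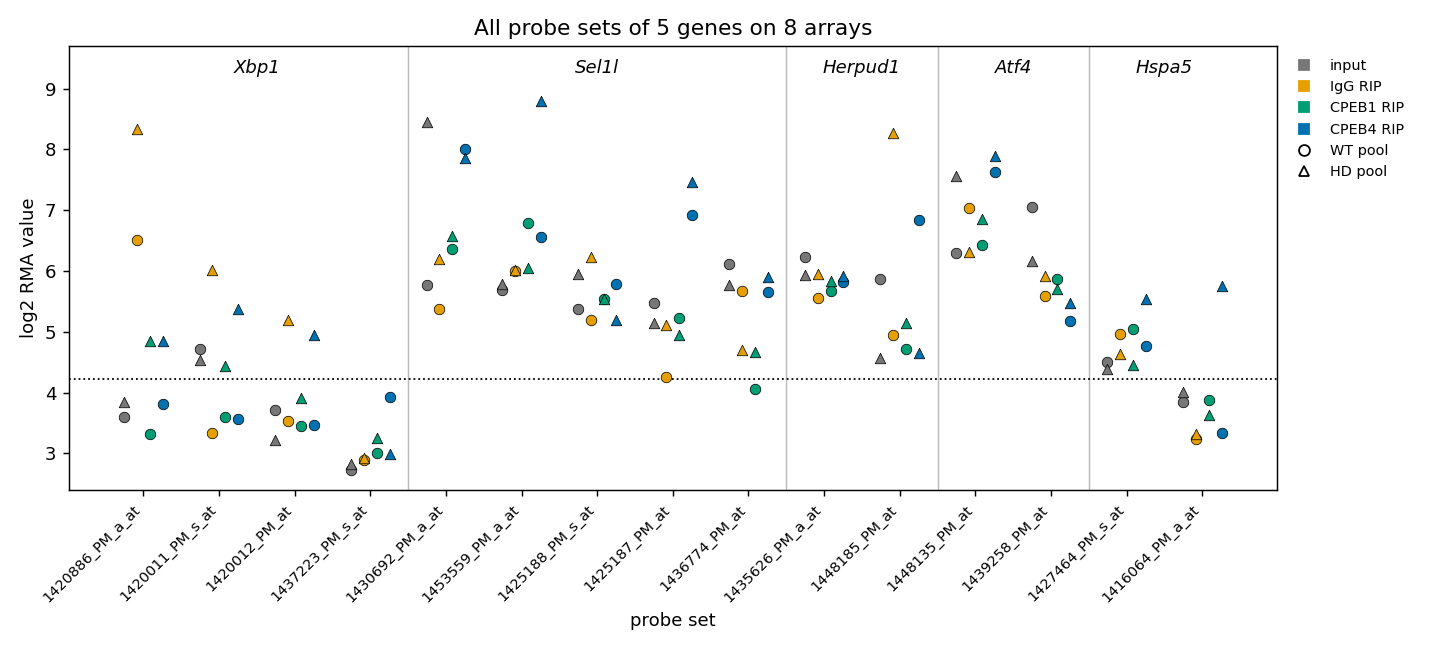
Log2 RMA value (vertical axis) of all probe sets (horizontal axis) of Xbp1, Sel1l, Herpud1, Atf4 and Hspa5 on 8 arrays, with colour for the fraction, circles for WT, triangles for HD and a dotted line at the 4.23 filter. Probe sets of 1 gene differ: both IgG arrays stand apart in 1 of 4 Xbp1 sets, both CPEB4 arrays lie above both IgG arrays in 3 of 5 Sel1l sets, and the 2 Atf4 sets place the CPEB4 arrays at opposite ends.

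Atf4, the factor of the PERK arm, read 6.30 and 7.56 in input, 7.04 and 6.31 on IgG, 6.42 and 6.85 on CPEB1, and 7.63 and 7.89 on CPEB4 with the probe set in the fit, 1448135_PM_at. The CPEB4 arrays were the 2 highest, HD input being the next. The differences were 1.09 ± 0.49 from IgG (2.13-fold, adjusted p = 0.255 by limma), 1.13 ± 0.49 from CPEB1 (adjusted p = 0.342) and 0.83 ± 0.49 from input (adjusted p = 0.309), and none passed the test. The difference from IgG was 0.16 with quantile normalization, 0.65 with cyclic loess, 0.33 with probe sets averaged and 0.40 to 1.78 without 1 array. The second Atf4 probe set, 1439258_PM_at, ran the other way. It read 7.05 and 6.17 in input, 5.58 and 5.91 on IgG, 5.87 and 5.70 on CPEB1, and 5.18 and 5.47 on CPEB4, its 2 lowest values.

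Ddit3, encoding CHOP, had 1 probe set. It read 7.03 and 7.57 in input, 6.94 and 5.66 on IgG, 8.37 and 7.18 on CPEB1, and 7.33 and 7.25 on CPEB4. HD IgG was its lowest array and WT CPEB1 its highest, and both precipitates lay above IgG in both pools. The difference from IgG was 1.48 ± 0.52 for CPEB1 (2.79-fold, adjusted p = 0.603 by limma) and 0.99 ± 0.52 for CPEB4 (1.99-fold, adjusted p = 0.299). The CPEB4 difference was 0.24 with quantile normalization, 0.49 with cyclic loess and 0.48 to 1.51 without 1 array. Against input, CPEB4 differed by -0.01 ± 0.52.

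Of the folding genes, Hspa5, which encodes the chaperone BiP, read 4.50 and 4.38 in input, 4.96 and 4.63 on IgG, 5.05 and 4.46 on CPEB1, and 4.77 and 5.54 on CPEB4. HD CPEB4 was its highest array, and WT CPEB4 lay within the other fractions. The second Hspa5 probe set, 1416064_PM_a_at, gave 5.75 on HD CPEB4 and 3.24 to 4.01 on the other 7. Both probe sets thus put HD CPEB4 first, on a single array. The mean difference from IgG was 0.36 ± 0.39 (adjusted p = 0.564 by limma).

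Pdia4, a protein disulfide isomerase, read 6.36 and 6.07 in input, 6.04 and 5.69 on IgG, 6.05 and 6.41 on CPEB1, and 5.12 and 6.11 on CPEB4. WT CPEB4 was low and HD CPEB4 was within the other fractions. The pools gave -0.92 and 0.42 for CPEB4 against IgG, a mean of -0.25 ± 0.41 (adjusted p = 0.702 by limma).

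Herpud1, an ER membrane protein of the degradation machinery, was flat with the probe set in the fit, 1435626_PM_a_at. It ranged from 5.55 on WT IgG to 6.23 in WT input, with a CPEB4 difference from IgG of 0.12 ± 0.28 (adjusted p = 0.791 by limma) that turned to -0.26 with quantile normalization. Its second probe set, 1448185_PM_at, read 5.87 and 4.56 in input, 4.94 and 8.26 on IgG, 4.72 and 5.15 on CPEB1, and 6.84 and 4.65 on CPEB4. There the highest array was HD IgG, as in 3 of the 4 Xbp1 probe sets, and the next was WT CPEB4.

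Sel1l, the adaptor of the HRD1 ubiquitin ligase in ER-associated degradation, had the highest CPEB4 values over IgG of the 10. The probe set in the fit, 1430692_PM_a_at, read 5.76 and 8.45 in input, 5.38 and 6.20 on IgG, 6.36 and 6.58 on CPEB1, and 8.00 and 7.85 on CPEB4. The CPEB4 arrays exceeded both IgG and both CPEB1 arrays, and HD input lay above them all. By fraction means the order was CPEB4, input, CPEB1 and IgG, and input overlapped each of the others. The difference from IgG was 2.14 ± 0.71 (4.41-fold, unadjusted p = 0.0277 and adjusted p = 0.176 by limma), and from CPEB1 1.46 ± 0.71 (adjusted p = 0.360). Without 1 array the former ranged from 1.44 to 2.84, and it was 1.32 with quantile normalization and 1.34 with probe sets averaged. From input it was 0.82 ± 0.71 (adjusted p = 0.468), with 2.24 in WT and -0.60 in HD.

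Of the 4 other Sel1l probe sets, 1425187_PM_at read 5.47 and 5.14 in input, 4.26 and 5.11 on IgG, 5.22 and 4.94 on CPEB1, and 6.92 and 7.46 on CPEB4. Both CPEB4 arrays stood above the other 6, HD input included. Its difference from IgG was 2.51 ± 0.36, with an adjusted p of 0.0570 by limma in a fit over all probe sets, an alternative added after the values were seen. 1453559_PM_a_at also had both CPEB4 arrays, 6.55 and 8.79, above IgG, at 6.0 and 6.01. In 1425188_PM_s_at and 1436774_PM_at CPEB4 overlapped IgG, with differences of -0.22 and 0.59. On 1436774_PM_at both CPEB1 arrays, at 4.06 and 4.67, were the lowest, and CPEB4 read 5.66 and 5.91.

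The CPEB1 precipitate was compared with IgG in the same fit. Limma called 0 of the 10, and 0 of the 11345 tested genes (0%), at an adjusted p under 0.05, while 836 of those genes (7.37%) and 2 of the 10 (Ddit3 higher and Xbp1 lower) had an unadjusted p under 0.05. Both CPEB1 arrays lay above both IgG arrays for 4 of the 10 (Ddit3, Sel1l, Eif2ak3 and Pdia4) and below for 1 (Xbp1), against 24.6% and 12.5% of all tested genes. With cyclic loess the counts were 1 and 1, against 18.6% and 18.3% of all tested genes. With quantile normalization they were 1 and 1, against 17.7% and 18%. The median of the 10 was -0.02, against 0.09 over all genes. Sel1l read 0.68 ± 0.71, Eif2ak3 0.39 ± 0.27 and Pdia4 0.37 ± 0.41. The pools had opposite signs for 5 of the 10, a share not counted over all tested genes. They were Atf4 (-0.62 in WT and 0.54 in HD), Ern1 (-0.41 and 0.36), Atf6 (0.13 and -0.42), Hspa5 (0.09 and -0.17) and Herpud1 (0.11 and -0.12).

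**Figure D3:**
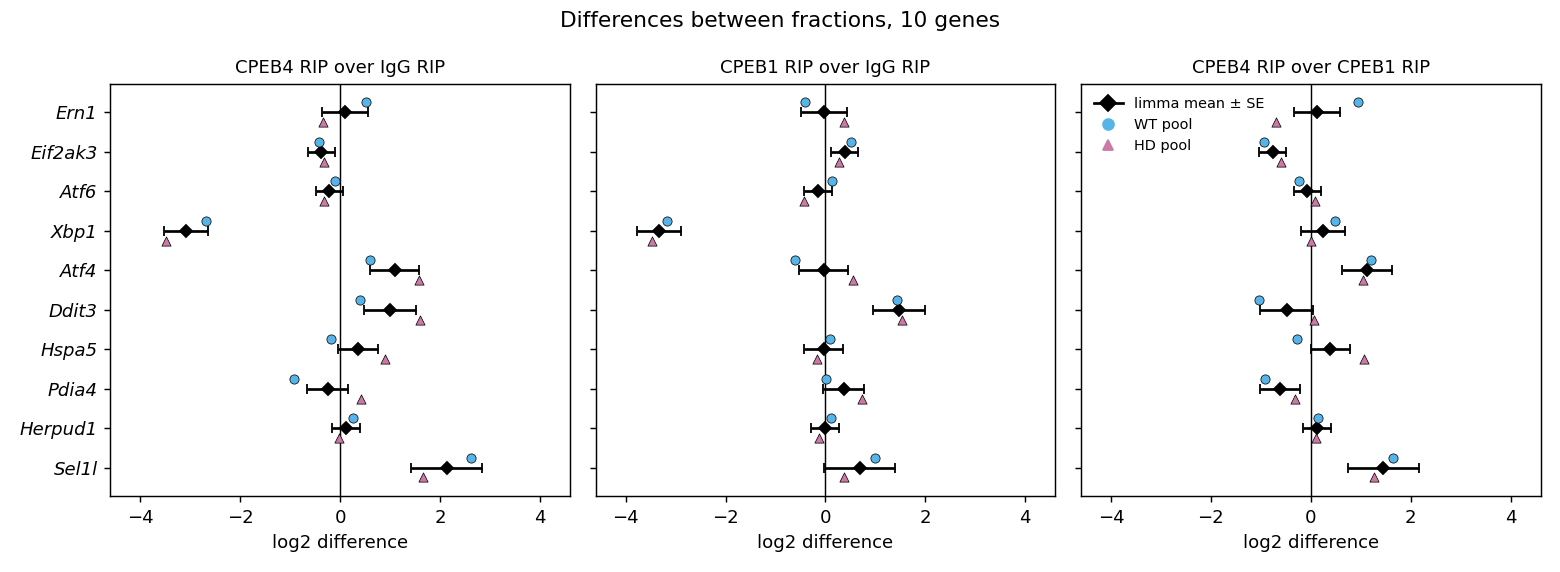
Log2 difference between fractions (horizontal axis) for the 10 genes, as the limma mean with its SE (diamonds with bars), the WT pool (circles) and the HD pool (triangles). Xbp1 lies at -3.08 and -3.33 in the 2 comparisons with IgG and near 0 between CPEB4 and CPEB1, where Sel1l and Atf4 lie at 1.46 and 1.13.

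Between the antibodies, limma called 0 of the 10, and 0.141% of all tested genes, at an adjusted p under 0.05; 1 of the 10, Eif2ak3, had an unadjusted p under 0.05, as did 15.3% of all tested genes. Both CPEB4 arrays lay above both CPEB1 arrays for 2 of the 10 (Sel1l and Atf4) and below them for 1 (Eif2ak3), against 18.6% and 37% of all tested genes. The median of the 10 was 0.12, against -0.21 over all genes. Xbp1 differed by 0.25 ± 0.44 and Hspa5 by 0.40 ± 0.39.

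Against input, limma called 0 of the 10 for CPEB4, for CPEB1 and for IgG at an adjusted p under 0.05. Of all tested genes 1.36%, 0.0176% and 0.0264% were called in these comparisons. Unadjusted p under 0.05 was reached by Eif2ak3 for CPEB4 and by Xbp1 for IgG, and by 0 of the 10 for CPEB1; of all tested genes 26.2%, 9.75% and 8.07% reached it. The medians of the 10 were -0.11 for CPEB4, -0.26 for CPEB1 and -0.32 for IgG, against -0.15, -0.01 and -0.11 over all genes.

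The HD and WT pools were set side by side within each fraction, with no test since each rests on 1 array. In input, Sel1l was higher in HD by 2.69 and Atf4 by 1.25, and the 8 other genes differed by -0.43 to 0.54. At a difference of 1 or more, 2 of the 10 were higher and 0 lower in HD input, against 11.3% and 4.43% of all tested genes. In pooled tissue, fewer cells of a type and less RNA per cell cannot be told apart. The mean difference over all 5 Sel1l probe sets was 0.54. The other Sel1l probe sets read 5.70 and 5.78, 5.37 and 5.95, 5.47 and 5.14, and 6.11 and 5.76 in WT and HD input. The mean over both Atf4 probe sets was 0.19, and the second set read 7.05 and 6.17. The Sel1l and Atf4 sets in the fit were higher on HD input than on WT input, as were the choroid plexus markers Ttr and Clic6. That holds for the input arrays, not for all arrays of the pools. On the precipitates Ttr read 9.02 to 9.47 in WT and 10.79 to 11.13 in HD. Clic6 read 3.80 to 5.66 there in WT and 4.53 to 5.34 in HD. The markers Kl, at 4.73 and 4.94, and Folr1, at 4.25 and 4.31, differed little between the inputs. The part of that tissue in these values was not tested.

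On the IgG arrays 1 of the 10 was higher in HD by at least 1 (Xbp1, by 1.83) and 1 lower (Ddit3, at -1.28), against 5.32% and 10% of all tested genes. On CPEB1, 2 were higher (Xbp1 by 1.53 and Ern1 by 1.01) and 1 lower (Ddit3 at -1.19), against 3.34% and 17.9%. On CPEB4, 1 was higher (Xbp1 by 1.03) and 0 lower, against 4.55% and 11.6%. Pdia4 lay just under that limit at 0.98, and Hspa5 at 0.77. Xbp1 was thus higher in HD in all 3 precipitates and by 0.24 in input, and Ddit3 lower in 2 precipitates, with -0.08 on CPEB4. The WT Xbp1 values on CPEB1 and CPEB4, at 3.32 and 3.82, lay under the filter, as did both its inputs. Xbp1 passed that filter only through its IgG arrays, so its part in the CPEB1 and CPEB4 counts rests on low WT values. With quantile normalization the Ddit3 difference on CPEB1 was -0.24.

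**Figure D4:**
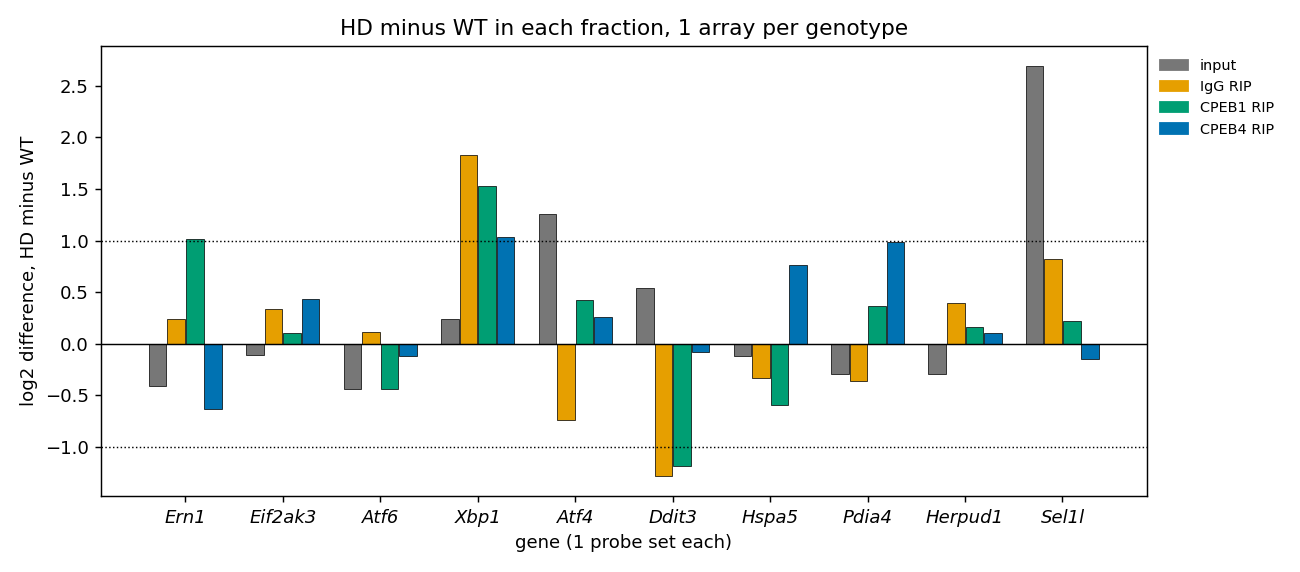
Log2 difference between the HD and the WT array (vertical axis) of each fraction (colours) for the 10 genes, 1 probe set each; dotted lines mark 1 and -1. Sel1l reaches 2.69 in input and stays between -0.15 and 0.82 in the precipitates, while Xbp1 is at 1.03 to 1.83 in the 3 precipitates. The WT Xbp1 values on CPEB1 and CPEB4 lie under the filter.

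Genes whose values followed those of Xbp1 and Hspa5 most closely over the 8 arrays were listed by Pearson correlation, as a description in which all genes share the same arrays. For Xbp1 they were Wfdc18, Oxnad1, Spag6l, Car10 and Pdpr (r from 0.940 to 0.945). Each had its 2 highest values on the 2 IgG arrays, Wfdc18 at 6.89 and 8.61 against 5.29 to 5.89 elsewhere. For Hspa5 they were Naa20, Taf12, Vsnl1, Shfl and Hnrnph1 (r from 0.930 to 0.972). Each had its highest value on HD CPEB4, where Vsnl1 read 8.06 against 4.80 to 7.03 on the other arrays. Both lists were picked by likeness to Xbp1 or Hspa5, so peaks on the same arrays come from the choice and are no separate result.

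The rest of the pathway was read through a list of 79 further ER stress genes, of which 73 were measured and 61 tested. For CPEB4 over IgG, limma called 2 of the 61 higher, Ddit4 and Tmbim6, and 0 lower, against 2.33% and 0.0441% of all tested genes. Both CPEB4 arrays lay above both IgG arrays for 27 of the 61 (44.3%) and below for 14 (23%), against 29.3% and 37% of all tested genes, with a median of 0.38 against -0.06; with quantile normalization the counts were 19 and 21 and the median -0.09. That normalization moved the median of all tested genes from -0.06 to -0.25, with 20.3% of them above and 43.6% below, against 31.1% and 34.4% of the list. With cyclic loess the list had a median of 0.19, against 0.03 over all tested genes. Then 41% of the list lay above and 19.7% below, against 30.6% and 27.1% of all tested genes. The sign of the list's median thus depends on the scaling, while it exceeded the median of all tested genes in each. For CPEB1 over IgG, 0 of the 61 were called by limma, with 5 at an unadjusted p under 0.05 (8.2%, against 7.37% of all tested genes).

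Ddit4, a stress-induced inhibitor of mTORC1 that ATF4 raises, read 6.34 and 6.01 in input, 5.89 and 4.84 on IgG, 4.91 and 4.92 on CPEB1, and 9.64 and 9.17 on CPEB4. The CPEB4 arrays stood far above the other 6 in both pools. The differences were 4.04 ± 0.33 from IgG (16.4-fold, adjusted p = 0.0259 by limma), 3.23 ± 0.33 from input (adjusted p = 0.0382) and 4.48 ± 0.33 from CPEB1 (adjusted p = 0.0441). The call against IgG was lost with quantile normalization (3.39, adjusted p = 0.0605 by limma) and in a fit of only the 2 fractions (adjusted p = 0.0838). Under both settings 0 of all tested genes were called. Without 1 array the difference from IgG ranged from 3.65 to 4.43. The calls against input and against CPEB1 were lost with quantile normalization (adjusted p = 0.0781 and 0.110 by limma) and with only the 2 fractions (0.0504 and 0.238). There, too, 0 of all tested genes were called. Without 1 array these differences ranged from 3.14 to 3.31 and from 4.17 to 4.80. That against CPEB1 was also lost with probe sets averaged (0.0536), where 1 of all tested genes was called higher.

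Tmbim6, the ER membrane protein Bax inhibitor-1, which binds IRE1α, read 9.62 and 10.22 in input, 8.96 and 9.79 on IgG, 10.44 and 10.26 on CPEB1, and 11.67 and 11.65 on CPEB4. Both CPEB4 arrays were the highest. The difference from IgG was 2.29 ± 0.35 (4.88-fold, adjusted p = 0.0450 by limma), and 0.77 with cyclic loess (adjusted p = 0.484). The call was also lost with no filter (adjusted p = 0.0511 by limma) and with trended robust eBayes (0.106). Under these settings 210 and 231 of all tested genes were called higher, and with cyclic loess 232. It was lost, too, with only the 2 fractions (0.0949) and with quantile normalization (0.110), where 0 of all tested genes were called. Without 1 array the difference ranged from 1.94 to 2.63. Map3k5, the kinase ASK1 of the same arm, had 1.94 ± 0.59 (adjusted p = 0.155; 1.13 to 2.75 without 1 array), while its second probe set had -0.29 in WT and -0.05 in HD.

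Of 11 ER chaperones tested, 8 had both CPEB4 arrays above both IgG arrays and 1 below (72.7% and 9.09%, against 29.3% and 37% of all tested genes), with a median of 0.71, and 0 passed the test. With cyclic loess the counts were 7 and 1, against 30.6% and 27.1% of all tested genes. With quantile normalization they were 5 and 3 (median 0.55), against 20.3% and 43.6%. Manf, a secreted ER stress factor, read 5.77 and 6.29 on IgG and 8.62 and 8.64 on CPEB4, a difference of 2.60 ± 0.59 (adjusted p = 0.0974 by limma). Canx, the lectin chaperone calnexin, read 4.19 and 4.30 on IgG and 7.57 and 5.88 on CPEB4 (2.48 ± 0.75, adjusted p = 0.153), and its second probe set had 2.70 in WT and -0.53 in HD. Set beside CPEB1, 7 of the 11 lay above and 1 below, against 18.6% and 37% of all tested genes. With quantile normalization these were 4 and 2, against 15.7% and 39.7%.

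Of 9 translocon genes, 4 lay above and 2 below (44.4% and 22.2%, against 29.3% and 37% of all tested genes). Their median of 0.65 turned to -0.09 with quantile normalization, which moved that of all tested genes from -0.06 to -0.25. Sec61a1, the channel subunit through which proteins enter the ER, read 4.90 and 5.46 on IgG and 9.58 and 9.13 on CPEB4, a difference of 4.17 ± 1.07 (adjusted p = 0.121 by limma); of its 3 other probe sets, 2 were higher in both pools and 1 had -0.19 and -0.10. Its HD input array, at 9.18, lay as high as CPEB4, and WT input lay at 5.95. Ssr2, of the translocon-associated complex, had 2.41 ± 0.73 (adjusted p = 0.154) and an HD input of 7.79 against 5.66 in WT. Sec61a1 and Ssr2 thus had the input pattern of the Sel1l probe set in the fit.

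Of 8 genes of disulfide formation, 3 lay above and 2 below (37.5% and 25%, against 29.3% and 37% of all tested genes). Txndc5 had 1.35 ± 0.27 (adjusted p = 0.0787 by limma) and Erp29 2.10 ± 0.82 (adjusted p = 0.214). Of 13 genes of ER-associated degradation, 4 lay above and 4 below (30.8% and 30.8%, near the shares over all tested genes). Nploc4 had 1.45 ± 0.56 (adjusted p = 0.212 by limma). Os9, a lectin that hands glycoproteins to the Sel1l complex, had -0.44 in WT and 3.08 in HD, while its second probe set, with 10.14 on HD IgG, had 3.34 and -1.63, the other way. In each of the remaining roles, the IRE1, ATF6 and eIF2 arms, 2 of 4 tested genes lay above IgG, and 1, 0 and 1 lay below. Of all tested genes 29.3% lay above and 37% below, and 4 genes are too few to tell a role from these shares. With quantile normalization 2, 1 and 0 lay above, against 20.3% of all tested genes. The phosphatase subunit Ppp1r15b had 1.35 ± 0.54, with -0.41 in WT and -0.10 in HD for its second probe set. The kinase Eif2ak1 had 0.86 ± 0.25, and its 2 other probe sets had -0.07 and 0.65, and -0.24 and -0.32. Of the membrane-bound factors, Creb3l2 had 1.0 ± 0.48 (second set 0.04 and 0.03) and Creb3 0.59 ± 0.69 (second set 2.02 and 2.04). Of 8 ATF4 targets, 2 lay above and 3 below (25% and 37.5%, near the shares over all tested genes). Asns, asparagine synthetase, had -1.16 ± 0.61 (adjusted p = 0.297), with 6.88 on WT IgG and 4.62 to 5.27 on the other arrays.

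**Figure D5:**
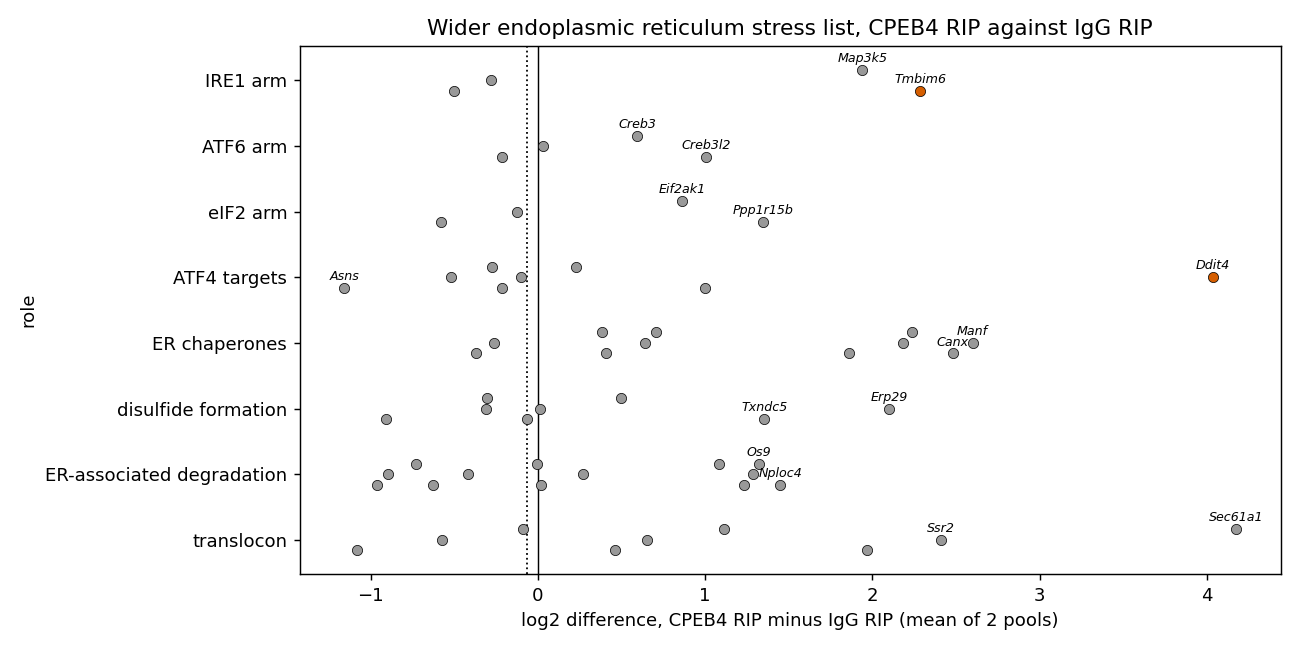
Log2 difference between CPEB4 and IgG precipitates (horizontal axis, mean of 2 pools) for 61 tested ER stress genes by role; orange points passed the limma test, names mark the genes described and the dotted line is the median of all tested genes, -0.06. Ddit4 and Tmbim6 passed, and Sec61a1, at 4.17, did not.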

How the data were processed

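The authors' deposited log2 values were made with RMA, per the submitters' processing notes. The sources used here give neither its version nor whether it ran on all 8 arrays at once, and no further scaling was applied. Of 45101 probe sets, 28898 carried 1 gene symbol, 551 several and 15652 none, and 28689 were matched to RefSeq (GRCm38.p6). The build of the array annotation is unknown here, so coordinates are printed for promoter windows alone. Each gene took the single-symbol probe set of highest mean, and 11345 genes with a mean above 4.23 were tested. Tests between fractions used limma 3.58.1 (R 4.3.3; lmFit, eBayes, two-sided) with fraction and genotype pool as terms over all 8 arrays, 3 residual and 2.29 prior degrees of freedom, and Benjamini-Hochberg adjustment over all tested genes, called at 0.05. In this model any effect of genotype on binding enters the error. The number of arrays limits the precision. The fit was tested on simulated data.

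Named genes were the 10 members, each called gene of the wider list and the 2 largest absolute CPEB4 over IgG differences in each role, the 5 genes most correlated with Xbp1 and with Hspa5, Cpeb1, Cpeb4 and cell type markers. The members and lists were chosen with earlier results of these data known. Alternatives were no filter on low values, a gene's probe sets averaged, cyclic loess, quantile normalization, no genotype block, trended robust eBayes, a fit of only the 2 fractions compared, each array left out and, for HD against WT, a limit of 1.5. All probe sets in 1 fit, and the wider list under these settings, were added after seeing the data. Untranslated regions and proteins were not analysed here.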

Additional observations from a re-analysis of the deposited data

Results flagged for a closer look

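For 3 probe sets the WT and HD pools moved in opposite directions over IgG by at least 0.5 each, a size chosen after the values were seen. With 1 array per pool and fraction the difference between the pools was not tested. The second Herpud1 probe set, 1448185_PM_at, had a CPEB4 over IgG difference of 1.90 in WT and -3.61 in HD, so HD minus WT was -5.51. Sel1l probe set 1425188_PM_s_at had 0.59 and -1.03, a difference of -1.62. Atf4 probe set 1448135_PM_at had a CPEB1 over IgG difference of -0.62 and 0.54, a difference of 1.16. Opposite signs of any size were seen in 11 of the 27 probe sets for CPEB4 over IgG and in 12 for CPEB1 over IgG. Shares over all probe sets on the array were not counted, so none of these counts can be read as particular to the genes.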

How the results depend on the processing

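The single call among the 10 genes for CPEB4 over IgG, Xbp1, was lost with no filter on low values (adjusted p = 0.0511 by limma). There 210 of all tested genes were called higher and 5 lower, against 264 and 5 in the main setting. It was also lost with a gene's probe sets averaged (272 and 5 of all tested genes) and with no genotype block (adjusted p = 0.0977, 341 and 7). With all probe sets in 1 fit it was lost as well (adjusted p = 0.0507, 569 and 26 of all probe sets). Under quantile normalization (-3.52, adjusted p = 0.0745) and with only the 2 fractions compared (adjusted p = 0.0838), 0 of all tested genes were called. Without 1 array the Xbp1 difference ranged from -3.53 to -2.64. The call held with cyclic loess (-2.77, adjusted p = 0.0426, 232 and 18 of all tested genes) and with trended robust eBayes (adjusted p = 0.0326, 231 and 6). With averaged probe sets, 8 of the 10 genes were tested. Xbp1 was not among them, since its mean fell under the filter, and for the other settings the cause was not tested. For the 5 other comparisons between fractions 0 of the 10 were called under every setting that kept all arrays or took only the 2 fractions compared. Among all tested genes, too, 0 were called for CPEB1 over IgG under each of them. For CPEB4 over input and over CPEB1, 0 were called with quantile normalization and with only the 2 fractions. With cyclic loess 283 and 60 were called higher in these 2 comparisons, and 22 and 1 lower.

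Over 60 differences of the 10 genes between fractions and 408 values under settings that kept all arrays or took only the 2 fractions compared, 19 changed sign. None of these belonged to a called difference. Those the text reports were Atf4 for CPEB4 over input (-0.23), Ern1 (-0.30) and Herpud1 (-0.37) for CPEB4 over IgG with probe sets averaged, Herpud1 with quantile normalization (-0.26) and Atf6 with cyclic loess (0.087). Without 1 array, CPEB4 over IgG ranged from -0.43 to 0.0088 for Atf6, -0.36 to 0.55 for Ern1, -0.084 to 0.32 for Herpud1, -0.20 to 0.92 for Hspa5, -0.79 to 0.29 for Pdia4 and -0.15 to 2.79 for Os9. CPEB4 over input ranged from -0.70 to 0.68 for Ddit3, -0.37 to 2.02 for Sel1l and -0.0028 to 1.22 for Xbp1, and CPEB4 over CPEB1 from -0.16 to 0.95 for Hspa5 and -0.0017 to 0.49 for Xbp1. The Manf difference passed the test in 2 of 8 such fits, and that of Txndc5 with probe sets averaged (1.80, adjusted p = 0.0408 by limma).

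Of the 10 genes, those at an HD minus WT difference of 1 or more, either way, numbered 2 in input, 2 on IgG, 3 on CPEB1 and 1 on CPEB4. At a limit of 1.5 they numbered 1, 1, 1 and 0. With probe sets averaged they numbered 0 in input, 1 on CPEB1 and 2 on CPEB4, with cyclic loess 1 on CPEB1, and with quantile normalization 0 on CPEB4. Shares over all tested genes were counted only in the main setting at a limit of 1, so the other counts have no background beside them. In the main setting at that limit, Xbp1 was the 1 gene on CPEB4 and 1 of the 3 on CPEB1. Its WT values on those arrays lay under the filter.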
